A study of Mus musculus with 27 samples.

Results

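The Hox genes encode the homeodomain transcription factors that give cells of the mouse embryo their position along the body axis. All rows of the count table whose symbol is Hoxa, Hoxb, Hoxc or Hoxd followed by a number were taken, which gave 39 genes of 24062 rows. Of these, 11 lie in the Hoxa cluster on chromosome 6, 10 in Hoxb on chromosome 11, 9 in Hoxc on chromosome 15 and 9 in Hoxd on chromosome 2. The number in each symbol is the paralogue group, from 1 to 13. Groups 1 to 3 (8 genes) are called anterior here, 4 to 8 (15 genes) central and 9 to 13 (16 genes) posterior.

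RNA of 27 mouse samples of strain C57BL/6 was sequenced in bulk, in 9 groups of 3 libraries. Mouse embryonic fibroblasts, primary connective tissue cells grown out of embryos, were labelled WT, KO or KO-NTD in experiment 1 and WT, WT-NTD, Het or Het-NTD in experiment 2. They were of early passage and were taken at about 90% confluence without synchronising the cell cycle. Lungs were taken whole, at 10 days of age, and labelled Het or WT. The genotypes concern Foxm1, a forkhead factor of dividing cells. What NTD stands for and how Foxm1 was altered are not explained in the labels, nor is the part of the embryo, or the number of embryos, that gave the fibroblasts. P-values therefore measure only the spread between these libraries.

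Hox genes are known to be switched on in the order in which they lie in their cluster. Anterior genes thereby mark positions nearer the head and posterior genes positions nearer the tail. In the limb bud the posterior Hoxa and Hoxd genes mark distance from the body wall, with group 13 at the hand and foot. Adult and cultured fibroblasts are known to keep part of the Hox code of the place they came from, and Hoxa5 is known as a gene of the lung mesenchyme.

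The proteins of a paralogue group share most of their DNA-binding homeodomain. A run of 45 bases near the end of the 180 homeobox bases is shown from GENCODE M21 transcripts. It encodes part of the helix that reads DNA, and is given for the genes on which the results below turn. Capitals mark bases that differ from Hoxd13.
Hoxd13: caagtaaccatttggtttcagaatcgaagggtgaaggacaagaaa
Hoxa13: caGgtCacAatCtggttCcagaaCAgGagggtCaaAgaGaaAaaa
Hoxc13: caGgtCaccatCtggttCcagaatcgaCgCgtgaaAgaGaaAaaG
Hoxb13: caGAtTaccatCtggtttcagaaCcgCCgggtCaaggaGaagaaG
Hoxc12: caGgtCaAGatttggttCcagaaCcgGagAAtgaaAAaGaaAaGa
Hoxb9: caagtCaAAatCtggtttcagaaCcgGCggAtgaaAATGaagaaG
Hoxa5: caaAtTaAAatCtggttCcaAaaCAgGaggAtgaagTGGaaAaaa
Over all 180 bases, Hoxd13 was 73.9% identical to Hoxa13, 75.0% to Hoxc13 and 67.2% to Hoxb13, against 55.6% to Hoxb9 and 51.1% to Hoxa5. Over the whole family, 42 pairs within a paralogue group had a median identity of 80.6% (67.2 to 93.9%) and the other 699 pairs a median of 60.6% (46.1 to 88.9%). Of the 39 genes, 31 share no stretch of 50 bases with another Hox transcript. The other 8 genes that share one are Hoxd3 with Hoxd4, Hoxc5 with Hoxc10, Hoxa6 with Hoxb4 and Hoxb9 with Hoxc9, and how their reads were split was not tested.

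Promoters are shown for 4 genes at the ends of the range, as the 250 bases before the RefSeq start on GRCm38.p6, read on the strand of the gene. Capitals mark matches, on either strand, to the TATA box motif TATAAA, the forkhead core TAAACA, the cell cycle homology region TTTGAA or the core of caudal and posterior Hox sites, TTTATG.
Hoxd13, chr2:74667975-74668224, plus strand: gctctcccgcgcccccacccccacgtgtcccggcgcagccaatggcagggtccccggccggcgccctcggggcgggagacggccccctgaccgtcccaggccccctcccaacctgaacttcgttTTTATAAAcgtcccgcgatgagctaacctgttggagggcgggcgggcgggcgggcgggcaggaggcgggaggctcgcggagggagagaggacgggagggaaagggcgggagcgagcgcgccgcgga
Hoxd12, chr2:74674763-74675012, plus strand: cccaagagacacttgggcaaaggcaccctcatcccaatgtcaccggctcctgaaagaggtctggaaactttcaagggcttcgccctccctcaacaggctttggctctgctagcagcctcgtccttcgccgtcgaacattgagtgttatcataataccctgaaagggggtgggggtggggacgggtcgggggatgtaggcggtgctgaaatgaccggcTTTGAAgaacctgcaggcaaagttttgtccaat
Hoxa13, chr6:52260881-52261130, minus strand: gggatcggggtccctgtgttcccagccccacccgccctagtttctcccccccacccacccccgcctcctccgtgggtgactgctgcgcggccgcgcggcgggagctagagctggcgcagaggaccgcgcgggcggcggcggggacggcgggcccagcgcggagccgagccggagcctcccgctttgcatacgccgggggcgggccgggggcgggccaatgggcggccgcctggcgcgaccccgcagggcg
Hoxa5, chr6:52204588-52204837, minus strand: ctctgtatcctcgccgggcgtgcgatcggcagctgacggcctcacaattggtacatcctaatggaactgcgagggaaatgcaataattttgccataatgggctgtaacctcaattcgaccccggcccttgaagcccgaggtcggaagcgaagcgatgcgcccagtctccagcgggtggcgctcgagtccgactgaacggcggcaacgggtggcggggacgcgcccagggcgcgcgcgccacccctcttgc
The Hoxd13 window held TATAAA at position -124 and its reverse complement TTTATA at -126, which overlap. The Hoxd12 window held TTTGAA at -33. GC content was 74.4% for Hoxd13, 55.6% for Hoxd12, 80.0% for Hoxa13 and 63.6% for Hoxa5. Of 32851 promoters of the same length, 12.4% held TATAAA or TTTATA, 3952 held TAAACA or TGTTTA, 16.0% held TTTGAA or TTCAAA and 10.8% held TTTATG or CATAAA. Among 24 windows of 22 Hox genes, 4, 3, 3 and 5 held them. A match is a description of letters and shows no binding.

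Libraries held 29730693 to 69517834 counts, of which 8898 to 14985 per library fell on Hox genes. Foxm1 itself stood at 157 ± 6.17 CPM (SD, n = 3) in the libraries labelled KO and at 148 ± 4.47 in WT of experiment 1, and so was not lower in KO. CPM is the count of a gene over the scaled library size, times 1000000. Levels, and comparisons between experiments or tissues, are given on a scaling of all 27 libraries. Genotype and NTD comparisons within an experiment or within lung, and the SD within groups, use a scaling of that experiment's or tissue's libraries alone, so the same library has a somewhat different CPM in each. KO and KO-NTD below therefore name libraries by their labels only, and no direction is tied to a loss of Foxm1 RNA. Foxm1 was at 134 ± 2.55 CPM in Het and 153 ± 1.87 in WT of experiment 2, and at 358 to 394 CPM on average in the 3 groups labelled NTD. The summed CPM of 10 fibroblast markers was 33021 to 51270 in the fibroblast libraries and 8512 to 10609 in lung, with none of them at 0 counts in any group. The summed CPM of 10 lung epithelial markers was 24105 to 50185 in lung and 2.72 to 8.15 in fibroblasts.

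In wild-type lung the Hox genes above 1 CPM were anterior and central. Of the 39 genes, 13 reached 1 CPM in all 3 WT libraries: 5 anterior, 8 central and no posterior gene, 6 of Hoxa, 7 of Hoxb and none of Hoxc or Hoxd. Levels of different genes are compared as RPKM, CPM per kilobase of exons. Hoxa5 led the lung with 30.4, 37.1 and 34.9 RPKM in the 3 WT libraries (34.2 ± 3.39, SD, n = 3), followed by Hoxb2 at 9.73 ± 1.42 and Hoxb5 at 9.29 ± 0.108 RPKM. At a minimum of 0.5 CPM, 15 genes were detected, 1 of them posterior: Hoxd9, with 26, 24 and 41 counts. In a bulk sample, fewer cells of a type and less RNA per cell cannot be told apart.

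The course of lung levels along the genes differed between clusters. In Hoxa, mean levels were 6.82 RPKM for Hoxa4 and 34.2 for Hoxa5, then 0.743 for Hoxa6 and 0.862 for Hoxa7, and 0.0131 for Hoxa9, while Hoxa10 had 0 counts in all 3 libraries. Levels in Hoxa thus fell between the neighbours Hoxa5 and Hoxa6, with no overlap between their library values, and fell again between Hoxa7 and Hoxa9. In Hoxb the levels declined stepwise, from 9.29 RPKM for Hoxb5 through 4.80 for Hoxb6 and 1.67 for Hoxb7 to 0.749 for Hoxb8. The level then fell to 0.0148 for Hoxb9. The Hoxb9 value rested on 2, 0 and 3 counts. Hoxc genes stayed at or below 0.143 RPKM on average, and the highest Hoxd genes were Hoxd8 at 0.342 and Hoxd9 at 0.333. In the WT lungs, 11 members had 0 counts: Hoxa10, Hoxa11, Hoxb13, Hoxc8, Hoxc10, Hoxc11, Hoxc12, Hoxd1, Hoxd11, Hoxd12 and Hoxd13. Hoxb1, an anterior gene, had at most 8 counts in any library of the series and 28 in all, and was left out of every test.

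Fibroblasts carried all 3 classes. Between 29 (KO-NTD) and 35 (Het-NTD) of the 39 genes reached 1 CPM in all 3 libraries of a group, with 30 in WT of experiment 1 and 32 in WT of experiment 2. Hoxb9, a posterior gene of the trunk, was the most abundant per length in WT of both experiments, with 12.7 ± 2.28 and 13.5 ± 4.28 RPKM. Hoxd13, the last gene of its cluster, came next with 9.08 ± 2.47 and 10.1 ± 3.60 RPKM, and these leading genes were not separated beyond their spread. Hoxa10 followed in experiment 1 at 6.32 ± 0.973 RPKM and Hoxc10 in experiment 2 at 8.10 ± 2.83 RPKM. In the libraries labelled KO, Hoxd13 (9.08 ± 3.80) and Hoxb9 (8.56 ± 3.79 RPKM) led with Hoxa10 at 7.12. Hoxd13 was not among the 3 leading genes in the 4 groups KO-NTD, WT-NTD, Het and Het-NTD, where Hoxb9 led at 12.3, 16.7, 16.0 and 15.1 RPKM. These ranks depend on the length used: per kilobase of the longest transcript, Hoxa10 (12.6 RPKM) stood above Hoxb9 (12.3) in KO-NTD and above Hoxb9 in KO (9.08 against 8.56), and Hoxc6 came next after Hoxd13 in WT of both experiments.

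**Figure D1:**
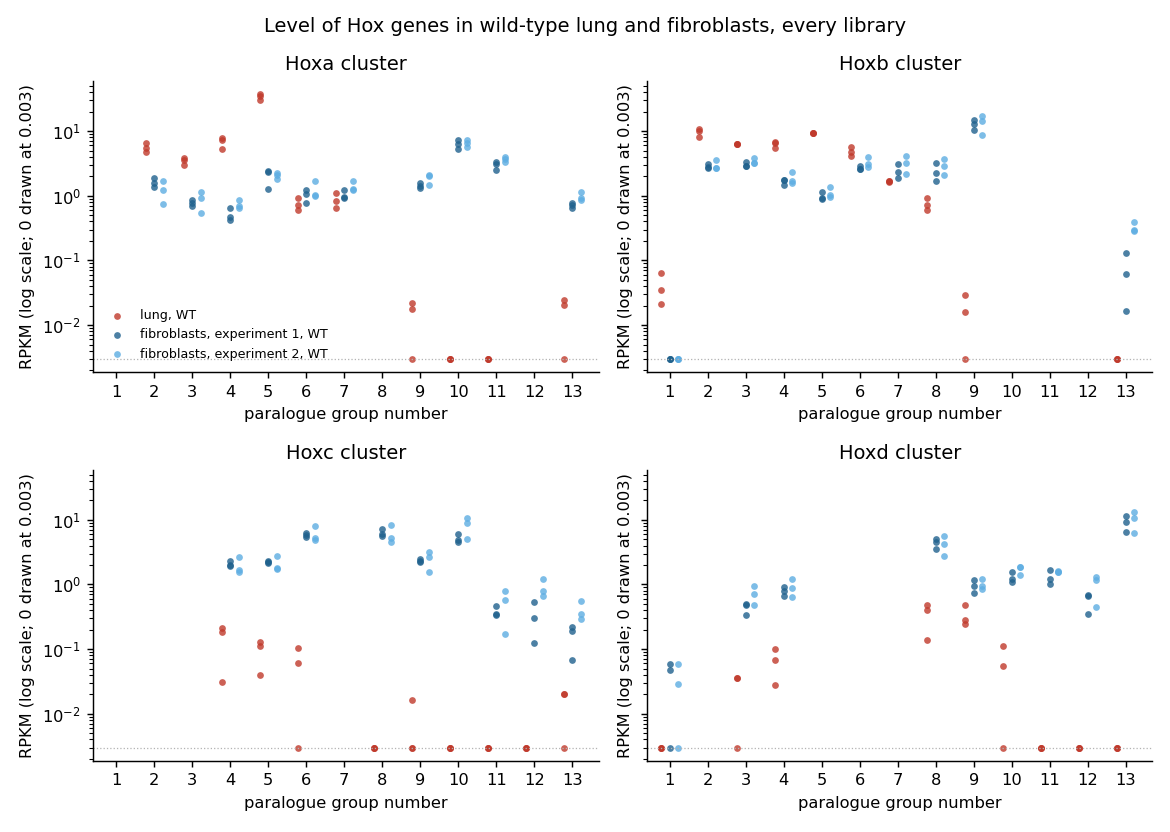
Level of Hox genes (RPKM, log scale, values of 0 drawn on the dotted line) against its paralogue number, with 1 panel per cluster and 1 point per library for WT lung and WT fibroblasts of experiments 1 and 2. Lung points reach 34.2 RPKM on average at Hoxa5 and lie at or near 0 from Hoxa9, Hoxb9, Hoxc8 and Hoxd11 on. There the fibroblast points lie above them, though at 0.0165 to 0.131 RPKM for Hoxb13 in experiment 1. Elsewhere in Hoxc and Hoxd the lung points are low too, at 0.342 RPKM on average or less.

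The summed RPKM of all 39 genes was 82.7 to 98.9 in WT lung, 92.1 ± 10.1 in WT fibroblasts of experiment 1 and 104 ± 12.7 in those of experiment 2. The make-up of that sum differed. Posterior genes made up 0.392 to 0.610% of the summed RPKM in WT lung and 0.219 to 0.502% in Het lung, against 45.4 to 58.0% across all 21 fibroblast libraries. Central genes made up 70.5 to 71.3% and anterior genes 28.3 to 28.9% in WT lung. In WT fibroblasts of experiment 1 the shares were 11.0 ± 1.17% anterior, 39.5 ± 2.05% central and 49.5 ± 3.22% posterior. Of the 7 fibroblast groups, KO-NTD had the lowest mean anterior share (7.86 ± 0.324%) and the highest mean posterior share (55.3 to 58.0%).

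**Figure D2:**
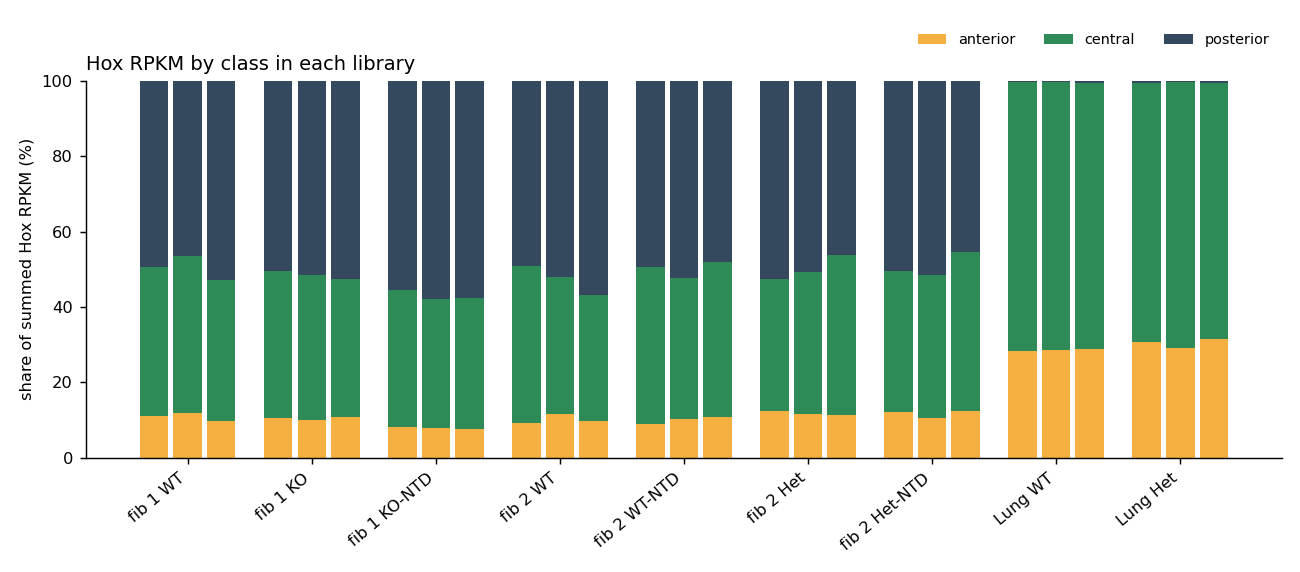
Share (%) of the summed Hox RPKM held by anterior, central and posterior genes, 1 bar per library, with the 9 groups along the x axis (fib 1 and fib 2 are the fibroblasts of each experiment). Posterior genes hold 45.4 to 58.0% in the 21 fibroblast libraries and under 1% in the 6 lung libraries, which have taller anterior and central parts.

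Differences between WT lung and WT fibroblasts were tested with edgeR in a fit of all 27 libraries, in which tissue and everything handled with it cannot be told apart. Against experiment 1, 35 of 38 tested Hox genes passed an adjusted p of 0.05, where 79.9% of all genes did, and the same number passed against experiment 2, where 78.4% did. In both comparisons 9 Hox genes were higher in lung (43.0% and 42.7% of all genes) and 26 lower (36.9% and 35.7%). By class, 4 anterior and 5 central genes were higher, and 2 anterior, 8 central and all 16 posterior genes lower. The values of the groups did not overlap for 34 and 36 of the 38 genes, where 83.6% and 81.2% of all genes did not. The share of called Hox genes was thus not far above the background. Direction followed position within Hoxa and Hoxb (4 and 5 genes higher, 4 of each lower), while all 9 tested Hoxc and all 9 Hoxd genes were lower in lung. The median log2 difference was -3.65 against experiment 1 and -4.15 against experiment 2 with the 11 genes at 0 counts set at their bound (fitted medians -4.07 and -4.42), where the median of all genes was 0.13 and 0.15.

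The 9 genes higher in lung were Hoxa2 to Hoxa5 and Hoxb2 to Hoxb6, 2 unbroken runs. Hoxa5 had 57.2, 69.6 and 65.6 CPM in lung, 4.46, 4.43 and 2.35 in WT fibroblasts of experiment 1 and 3.40, 4.18 and 3.91 in those of experiment 2. It was 17.1-fold higher than in experiment 1 (log2 difference 4.09, SE 0.39, edgeR adjusted p = 3.7e-09) and 16.7-fold higher than in experiment 2 (adjusted p = 5.0e-09). Hoxa4 was 13.3-fold and 9.29-fold higher, Hoxb5 9.44-fold and 8.37-fold, Hoxa3 4.50-fold and 4.02-fold, and Hoxa2 3.53-fold and 4.57-fold. The Hoxb differences shrank toward the posterior side of Hoxb5: log2 differences against experiment 1 were 3.24 for Hoxb5, 0.82 for Hoxb6, -0.55 for Hoxb7 and -1.66 for Hoxb8. Against experiment 2 they were 3.07, 0.55, -0.91 and -1.94, and the call of Hoxb6 was close to the threshold (edgeR adjusted p = 0.0438). Hoxa6 and Hoxa7 passed against neither experiment, with log2 differences of -0.44 and -0.27 against experiment 1 and -0.72 and -0.69 against experiment 2.

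Of the posterior genes, Hoxa10 had the lowest p-value, with 0 counts in lung against 20.8, 17.4 and 23.8 CPM in WT fibroblasts of experiment 1 (edgeR adjusted p = 3.6e-15). With a floor of 3 counts over the 3 lungs, Hoxa10 was at least 887-fold lower in lung than in experiment 1 and at least 908-fold lower than in experiment 2. The same bounds were 960 and 1095 for Hoxd13, 291 and 365 for Hoxa11, 421 and 667 for Hoxc10, and 234 and 287 for Hoxd11. The central gene Hoxc8, with 0 counts in lung, was at least 767-fold and 747-fold lower. Hoxb9, with 5 lung counts in all, was 841-fold lower than in experiment 1 (95% counting interval 360 to 2592) and 902-fold lower than in experiment 2 (386 to 2779). Hoxa9, with 10, was 105-fold (56.6 to 219) and 134-fold lower (72.8 to 281). Among lung Hox counts between 1 and 30, 52 of 64 were even. Over all genes with 1 to 30 counts, 61.5 to 67.3% were even, depending on the library. Reads carried no molecular identifiers, and these intervals and bounds take in no more than counting error. The intervals are therefore possibly too narrow and the bounds possibly too high.

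Other position genes and Hox regulators are set against the shares of all genes given above (43.0% higher and 36.9% lower against experiment 1, 42.7% and 35.7% against experiment 2). Of 20 limb and lateral plate factors, 6 were higher and 12 lower in WT lung than in WT fibroblasts of experiment 1, and 6 and 13 against experiment 2. Of 10 lung mesenchyme and foregut factors, 6 were higher and 2 lower against each. These included Nkx2-1, the lung epithelial regulator, with a log2 difference of 11.00, and Foxf1, a factor of lung mesenchyme, with 6.30 against experiment 1. The TALE cofactors, which bind DNA with Hox proteins, were higher for 5 and lower for 1 of 9 against experiment 1, and for 4 and 2 against experiment 2. Of 18 Polycomb genes, which keep Hox clusters silent, 7 were higher and 9 lower against experiment 1, and 8 and 8 against experiment 2. Of 11 Trithorax genes, which keep them active, 2 were higher and 8 lower against experiment 1, and 0 and 7 against experiment 2. Of 14 retinoic acid genes 7 were higher and 4 lower against experiment 1, and 6 and 5 against experiment 2. Of 3 caudal and axial regulators 2 were higher and 1 lower against each. Of 13 other genes in or beside the clusters, 5 were higher and 6 lower against experiment 1, and 3 and 6 against experiment 2.

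Het and WT lungs were compared to see whether the lung code differed by genotype. No Hox gene passed the edgeR test among 19 tested, 0 passed an unadjusted p of 0.05 (0.715% of all genes did), and DESeq2 called 0 (0.00628% of all genes). Over all 15933 genes the edgeR test also called 0%. Hoxa2 had the lowest p-value, with 11.6 to 16.1 CPM in Het and 10.2 to 13.9 in WT (log2 difference 0.25, 95% interval -0.19 to 0.70, edgeR adjusted p = 1, as for all 19). Hoxd4 and Hoxa4 came next, with 0.90 (-1.02 to 2.81) and 0.27 (-0.40 to 0.94). The leading lung gene Hoxa5 had 92.5, 86.0 and 48.5 CPM in Het and 69.2, 84.5 and 79.5 in WT, and the groups overlapped. Het library 3, the lowest for Hoxa5, also had the lowest summed CPM of lung epithelial markers in Het (50185, 43530 and 24105). No Hox gene passed without this library either, and the part of cell make-up was not tested. None of the 19 genes had groups that did not overlap, where 4.24% of all genes did. The median over the 19 genes was 0.04 on the log2 scale.

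In experiment 2, Het fibroblasts were compared with WT. In Het, Hoxd13 was lower and Hoxc12 and Hoxc13 were higher than in WT. All 3 called genes are posterior. That is 3 of 37 tested genes, where 16.5% of all genes passed. Of the 37, 2 were higher, where 7.89% of all genes were, and 1 was lower, where 8.61% were, so the share of Hox genes called was below the background. DESeq2 called 6, of which 4 were higher and 2 lower, where it called 20.2% of all genes. At an unadjusted p of 0.05, 13 of 37 passed (35.1%), against 31.0% of all genes.

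Hoxd13 lies at chr2:74668310-74671599 and is known for its part in forming digits. It had 7.95, 7.18 and 3.31 CPM in the 3 Het libraries (6.15 ± 2.49, SD, n = 3) and 14.9, 32.1 and 25.7 in WT (24.2 ± 8.67). Every Het value lay below every WT value, and WT library 1 was the lowest of the WT libraries. The log2 difference was -1.97 with an SE of 0.43, 0.255-fold (95% interval 0.130 to 0.501, edgeR adjusted p = 0.0151). Hoxc12, at chr15:102936757-102938609, had 2.84, 2.85 and 1.48 CPM in Het and 0.789, 0.668 and 1.22 in WT. It was 2.69-fold higher (1.55 to 4.65, adjusted p = 0.0200), and its groups did not overlap either. Hoxc13, at chr15:102921103-102928814 and known from hair and nail, had 2.91, 2.48 and 1.45 CPM in Het and 1.32, 0.822 and 0.682 in WT, 2.42-fold higher (1.46 to 4.02, adjusted p = 0.0229) and again without overlap.

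These calls rest on few libraries. Without WT library 2, which had the highest Hoxd13, no Hox gene passed: the log2 differences were -1.72 for Hoxd13 (edgeR adjusted p = 0.0536), 1.25 for Hoxc12 (0.0690) and 1.19 for Hoxc13 (0.0712). Without WT library 1, which had the lowest Hoxd13 of WT, 7 passed, and without Het library 1 or library 3, 1 and 5 passed.

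The neighbours Hoxd12 and Hoxc11 had log2 differences of the same sign as the called gene beside them, without passing. Paralogues of the 3 went in either direction. Hoxd12, beside Hoxd13, had 1.21, 0.850 and 0.223 CPM in Het against 1.10, 3.21 and 2.90 in WT (log2 difference -1.64, edgeR adjusted p = 0.0945), and 1 Het library lay above 1 WT library. Hoxa13, the Hoxa paralogue of Hoxd13, had 1.87, 1.25 and 0.612 against 2.03, 2.75 and 2.19 CPM (-0.89, adjusted p = 0.155), with no overlap. Hoxc11, beside Hoxc12, had 1.80 to 2.48 against 0.334 to 1.54 CPM (1.09, adjusted p = 0.145), with no overlap. Hoxb13 had 2.60, 1.55 and 0.501 against 0.815, 0.616 and 0.597 CPM (1.20, adjusted p = 0.0956), with overlap. The 4 paralogues of group 13 thus split into Hoxd13 and Hoxa13 below 0 and Hoxc13 and Hoxb13 above it, and 2 of the 4 passed the test.

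Among anterior and central genes none passed. The closest were Hoxb2 (0.37 on the log2 scale, edgeR adjusted p = 0.0609), Hoxb3 (0.30, 0.0679) and Hoxa5 (0.50, 0.0729). Hoxa5 had 5.16, 4.68 and 5.76 CPM in Het and 3.26, 4.03 and 3.75 in WT, with no overlap. All 6 anterior genes tested, 12 of 15 central and 10 of 16 posterior genes had a log2 difference above 0. By cluster these were 9 of 11 Hoxa, 9 of 9 Hoxb, 6 of 9 Hoxc and 4 of 8 Hoxd genes. The median over the 37 genes was 0.15, against 0.01 over all genes, and the median size of the difference, whatever its sign, was 0.25 against 0.14. The groups did not overlap for 11 Hox genes (29.7%), where 33.9% of all genes did not. Of these, 8 were higher in Het (Hoxa5, Hoxa7, Hoxa10, Hoxb3, Hoxb4, Hoxc11, Hoxc12, Hoxc13) and 3 lower (Hoxa13, Hoxd11, Hoxd13).

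**Figure D3:**
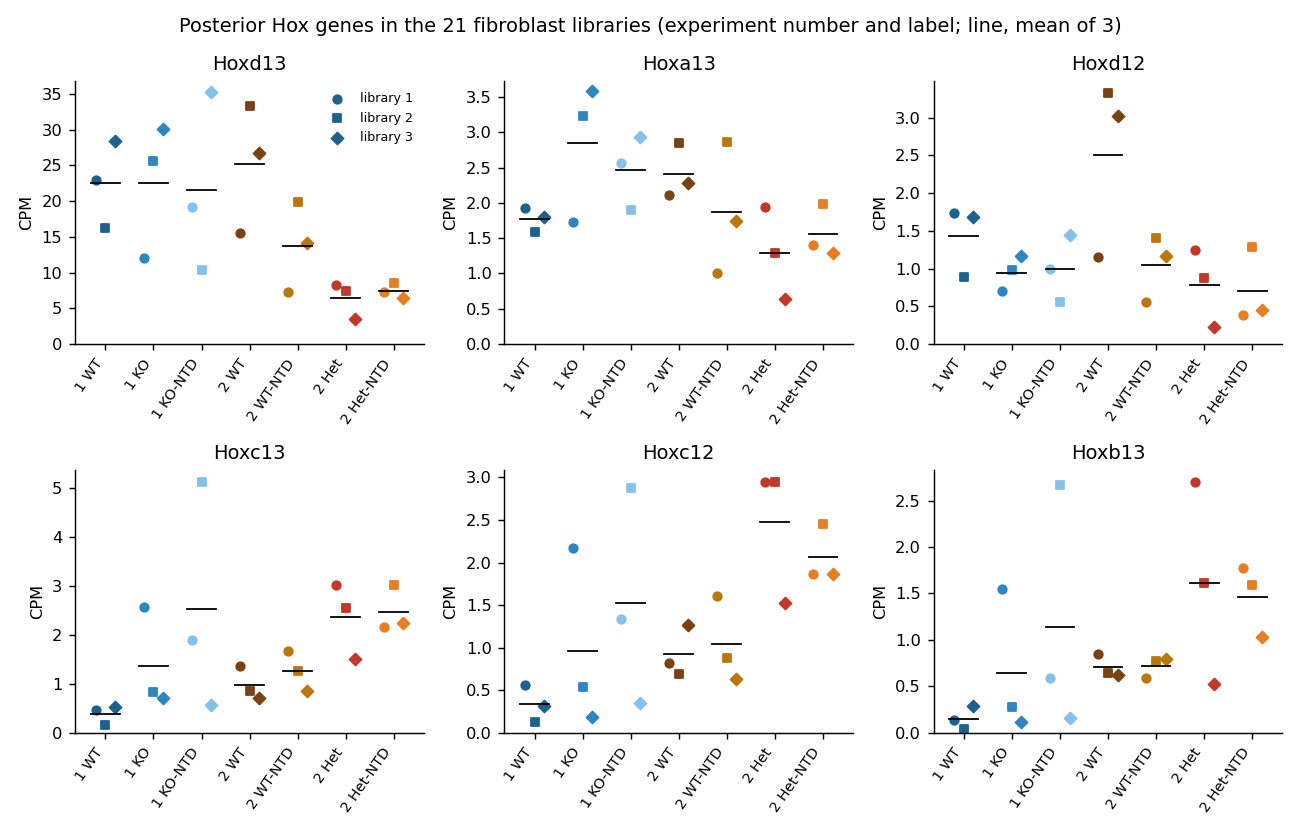
CPM (scaling of all 27 libraries) of 6 posterior Hox genes in the 21 fibroblast libraries, 1 panel per gene with its own y axis from 0, by experiment number and label, with symbols for the library number and a line at the mean of 3. Hoxd13 lies below 10 CPM in all 6 Het and Het-NTD libraries and spreads widely in the other groups, and the highest Hoxc13 point is 1 KO-NTD library at 5.13 CPM.

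Other position genes also differed between Het and WT. Of 19 limb and lateral plate factors tested, 3 passed as higher and 8 as lower in Het, where 7.89% and 8.61% of all genes did, with a median log2 difference of -0.33. Tbx18 was higher (0.92), as were Shox2 (0.66) and Tbx3 (0.52). Fgf10, the growth factor of the limb bud (-0.88), Lhx2 (-1.85) and Tbx2 (-1.19) were lower. The other lower genes, named after their values were seen as are the hindlimb factor Pitx1 and the forelimb factor Tbx5, were Lhx9 (-1.82), Tbx4 of the hindlimb (-1.60), Isl1 (-1.37), Hand2 (-0.90) and Prrx1 (-0.36). Pitx1 (-0.30, edgeR adjusted p = 0.583) and Tbx5 (0.00, 0.992) did not pass. Of 8 lung mesenchyme and foregut factors, Bmp4 (-2.68), Wnt2 (-1.17) and Gata6 (-0.63) were lower and none was higher, beside the same shares of all genes.

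Known regulators of the clusters are read against the same 16.5% of all genes. Of 18 Polycomb genes Jarid2 passed (0.28), and of 11 Trithorax genes Kdm6b (0.37) and Ash1l (0.16) were higher and Psip1 (-0.28) lower. Of 9 TALE cofactors Meis2 was lower (-0.53, edgeR adjusted p = 0.0129). Of 13 retinoic acid genes, Rarb, a receptor (-1.33), and Cyp26b1, which breaks retinoic acid down (-0.92), were lower and Rara higher (0.24). Gdf11 was higher (0.33) of 2 caudal and axial regulators tested, and Lnp, a neighbour of Hoxd, was lower (-0.26) of 10 genes in or beside the clusters.

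Markers of other cell types moved with these groups. The summed CPM of 12 macrophage markers was 171 to 206 in WT and 11.7 to 69.7 in Het of experiment 2, and 10 of the 12 passed as lower in Het. None of the 12 was at 0 counts in any group. The summed CPM of 6 chondrocyte markers was 71.6, 491 and 466 in the 3 WT libraries and 125, 119 and 51.9 in Het, where 1 of the 6 was at 0 counts in all 3. Of the 5 chondrocyte markers tested, Sox9 was higher in Het (0.35) and Acan lower (-1.44). Of 3 skeletal muscle markers tested, Myh3 was higher in Het (3.92 on the log2 scale), and the summed CPM of all 7 was 27.6 to 29.2 in Het and 33.7 to 47.9 in WT. WT library 1 was low for the chondrocyte sum as it was for Hoxd13. The part of these cells in the Hox differences was not tested.

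In the same experiment, Het-NTD was compared with WT-NTD, a second contrast of Het with WT in other libraries. No Hox gene passed the edgeR test of 37, where 11.5% of all genes did (5.24% higher and 6.24% lower). At an unadjusted p of 0.05, 6 Hox genes passed (16.2%, against 25.4% of all genes), and DESeq2 called 3, where it called 14.7% of all genes. Hoxa5 was closest, with 5.16, 5.58 and 4.48 CPM in Het-NTD and 2.89, 2.94 and 4.39 in WT-NTD (log2 difference 0.58, edgeR adjusted p = 0.0536). Hoxa3 (0.72, 0.0746) and Hoxc13 (0.98, 0.0793) came next, the latter with 2.09, 2.92 and 2.17 against 1.61, 1.21 and 0.823 CPM. All 3 had groups that did not overlap.

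Hoxd13 had 7.07, 8.26 and 6.22 CPM in Het-NTD and 6.95, 19.2 and 13.6 in WT-NTD, and these overlapped (log2 difference -0.89, SE 0.43, adjusted p = 0.233). Hoxc12 was at 1.01 (adjusted p = 0.0987) and Hoxb13 at 1.02. The groups did not overlap for 11 of 37 genes (29.7%, against 32.1% of all genes), 10 of them higher in Het-NTD, namely Hoxa3 to Hoxa7, Hoxb2, Hoxb13, Hoxc12, Hoxc13 and Hoxd10, and Hoxd8 lower. The median was 0.02. Of 19 limb factors, 3 passed as higher (Tbx18 0.72, Tbx3 0.54, Shox2 0.46) and 2 as lower (Lhx9 -1.79, Fgf10 -0.76), beside 5.24% and 6.24% of all genes. The summed macrophage markers were 12.3 to 17.4 CPM in Het-NTD and 70.6 to 167 in WT-NTD. Of 3 skeletal muscle markers tested, Myh3 (4.02) and Actc1 (2.83) were higher in Het-NTD. The summed CPM of all 7 was 38.4 to 54.8 in Het-NTD and 28.0 to 49.8 in WT-NTD, and these overlapped. The part of these cells in the Hox values was not tested.

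The NTD label was compared with the unlabelled group in each background. For Het-NTD against Het, 0 of 37 Hox genes passed, where 0.0140% of all genes did. None passed an unadjusted p of 0.05 (6.26% of all genes did), and DESeq2 called 0 (0.167% of all genes). Log2 differences ran from -0.26 to 0.36, with Hoxd4 (0.36, edgeR adjusted p = 0.827), Hoxb3 (-0.13) and Hoxb2 (0.15) at the lowest p-values. Hoxd4 was the 1 gene without overlap (2.70%, against 16.3% of all genes). For WT-NTD against WT, 0 of 37 passed, where again 0.0140% of all genes did, and 3 passed an unadjusted p of 0.05 (8.11%, against 7.37% of all genes). Hoxd4 led, with 4.90, 4.24 and 5.24 CPM in WT-NTD and 3.45, 2.46 and 1.82 in WT. Its groups did not overlap (log2 difference 0.89, SE 0.20, edgeR adjusted p = 0.529), and DESeq2 called it alone of the Hox genes with an adjusted p of 0.0207, where it called 0.226% of all genes. Hoxd11 (-0.53, 3.49, 6.06 and 3.57 against 6.26, 6.62 and 6.20 CPM) was the other gene without overlap (2 of 37 or 5.41%, against 9.33% of all genes), and Hoxb2 (0.28) had the third lowest p-value. The difference between both NTD effects was tested in 1 model: 0 of 37 passed, where 0% of all genes did, with Hoxd4 at -0.54, Hoxd13 at 1.08 and Hoxb3 at -0.25 (edgeR adjusted p = 0.892 for each). No Hox gene passed an unadjusted p of 0.05 there (4.97% of all genes did), and DESeq2 called 0 (0.0280% of all genes).

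In experiment 1 the libraries labelled KO were compared with WT. No Hox gene of 37 passed, where 0.447% of all genes did. At an unadjusted p of 0.05, 1 passed, as did 1751 of all 14551 genes, and DESeq2 called 0 (3.43% of all genes). That gene was Hoxa13, with 1.60, 3.01 and 3.36 CPM in KO and 1.78, 1.45 and 1.65 in WT (log2 difference 0.71, SE 0.29, edgeR adjusted p = 0.388), and the groups overlapped. Hoxb8 (-0.67, 0.439) and Hoxc13 (1.83, 0.459) came next. Hoxc13 had 2.39, 0.768 and 0.661 CPM in KO and 0.436, 0.150 and 0.488 in WT, without overlap but with 1 KO library far above the other two. The groups did not overlap for 4 Hox genes (10.8%, against 17.3% of all genes), among them Hoxa11, Hoxc13 and Hoxd3, which were higher. Of 9 Hoxb genes, 1 had a log2 difference above 0, namely Hoxb13 (2.09, edgeR adjusted p = 0.585). The median over the 37 genes was -0.06, and none of the 8 lists of position genes and Hox regulators had a called gene.

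KO-NTD was compared with KO. No Hox gene of 37 passed, where 0.00687% of all genes did, while 8 passed an unadjusted p of 0.05 (21.6%, against 6.68% of all genes) and DESeq2 called 1, where it called 0.186% of all genes. That gene was Hoxa2, an anterior gene, with 1.28, 1.05 and 0.819 CPM in KO-NTD and 2.56, 2.35 and 2.23 in KO (log2 difference -1.18, SE 0.22, edgeR adjusted p = 0.714, DESeq2 adjusted p = 0.00406). The posterior gene Hoxa9 had 10.9, 11.6 and 11.2 against 9.15, 6.81 and 8.16 CPM (0.48), and Hoxc9 had 7.14, 5.95 and 6.04 against 5.03, 4.31 and 3.52 CPM (0.57), both with an edgeR adjusted p of 0.714. The groups did not overlap for 7 genes (18.9%, against 11.2% of all genes). Hoxa9, Hoxc9 and Hoxd11 were higher among them, and Hoxa2, Hoxd3 and Hoxd4 were lower. By class, 14 of 16 posterior genes had a log2 difference above 0 (median 0.48), 11 of 15 central (0.19) and 2 of 6 anterior (-0.12), while the median of all genes was -0.01. These libraries varied in their macrophage markers, with summed CPM of 13.1, 396 and 268 in KO and 36.1, 10.3 and 291 in KO-NTD. The chondrocyte sum was 898 to 1180 in WT, 159 to 588 in KO and 86.2 to 145 in KO-NTD. The part of these cells was not tested.

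**Figure D4:**
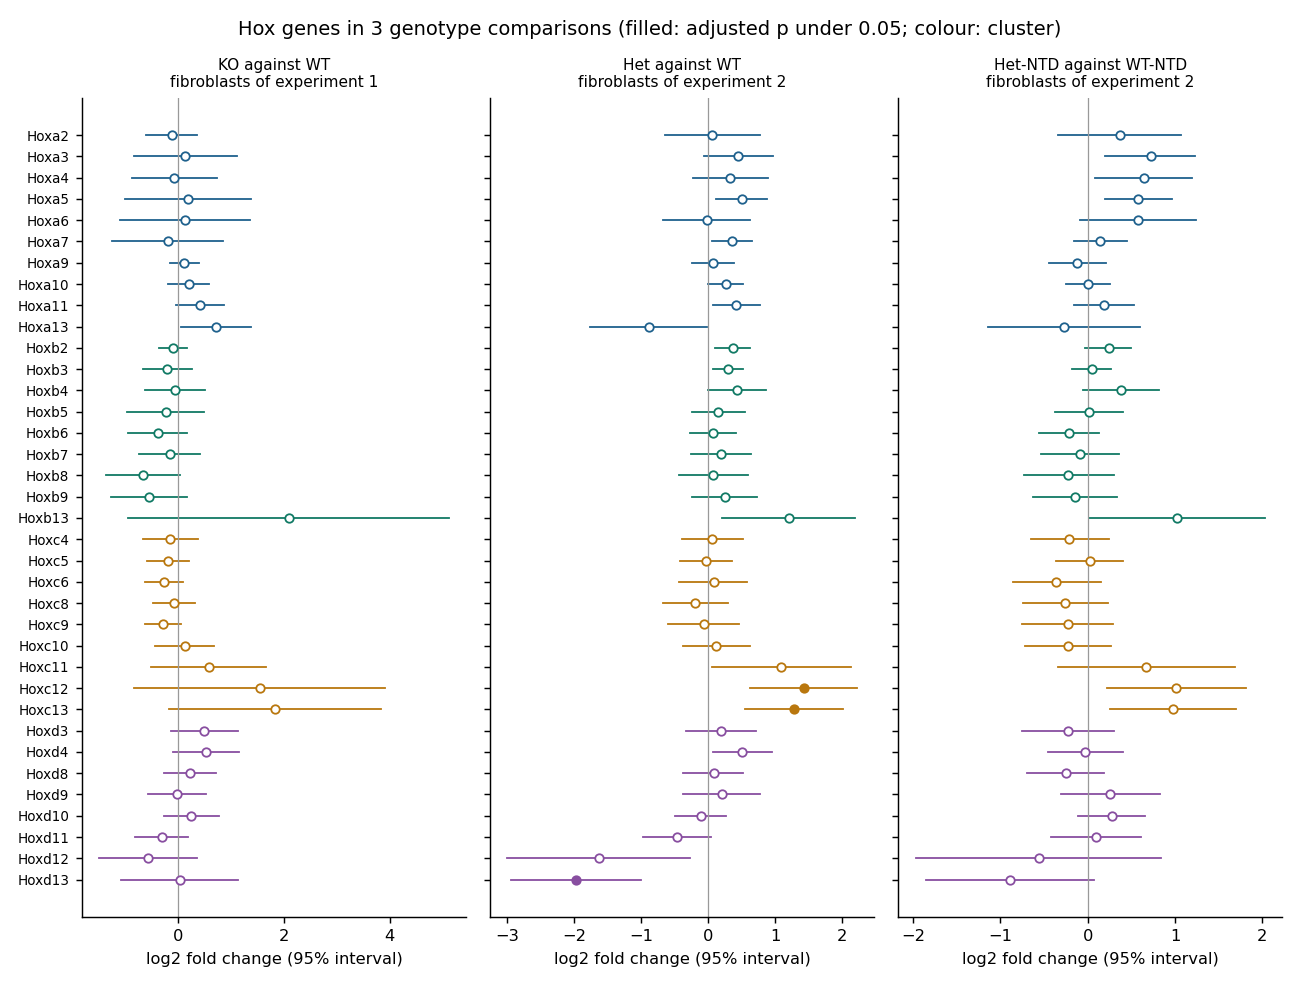
Fitted log2 fold change with its 95% interval for 36 of the 37 Hox genes tested, in 3 comparisons of genotypes with separate x axes, coloured by cluster and filled where the edgeR adjusted p is under 0.05. Filled points appear in the middle panel alone, at Hoxd13 (-1.97), Hoxc12 (1.43) and Hoxc13 (1.28), and intervals are widest at Hoxb13, Hoxc11 to Hoxc13 and Hoxd12 to Hoxd13.

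Whether the KO effect in experiment 1 differed from the Het effect in experiment 2 was tested in the fit of all libraries. Each effect was taken against WT of its own experiment, so genotype and experiment cannot be told apart here. No Hox gene of 38 passed, where 0.671% of all genes did, 3 passed an unadjusted p of 0.05 (7.89%, against 12.7%), and DESeq2 called 0 (3.76% of all genes). Hoxd13 led with a KO effect 1.98 log2 units above the Het effect (SE 0.65, edgeR adjusted p = 0.159), before Hoxa13 (1.58, 0.214) and Hoxb3 (-0.53, 0.271). Without KO library 1, which had the lowest Hoxd13 of that group, 3 genes passed, among them Hoxd13 (2.28, adjusted p = 0.0441) and Hoxb3 (-0.80, adjusted p = 0.0104). The Het effect in lung minus that in fibroblasts gave 0 of 38, where 0.222% of all genes passed, 1 at an unadjusted p of 0.05 (2.63%, against 11.7%) and 0 by DESeq2 (1.94% of all genes). The lowest p-values were those of Hoxa13 (-2.95, edgeR adjusted p = 0.412), Hoxc9 (-2.60) and Hoxc8 (2.68), all with at most a few counts in lung.

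The WT groups of both experiments share a label and served to show how far Hox levels differed without one. No Hox gene of 38 passed, where 15.6% of all genes did. At an unadjusted p of 0.05, 2 passed (5.26%, against 28.5% of all genes), and DESeq2 called Hoxc10 alone of the Hox genes (adjusted p = 0.0456), where it called 20.9% of all genes. Hoxc10 had 9.24, 8.78 and 11.3 CPM in experiment 1 and 20.1, 9.53 and 16.8 in experiment 2 (log2 difference -0.66, edgeR adjusted p = 0.0832). Hoxb13 had 0.135, 0.0365 and 0.288 against 0.850, 0.639 and 0.621 CPM (-2.21, 0.161), and Hoxc13 0.471, 0.164 and 0.532 against 1.37, 0.852 and 0.710 CPM (-1.34, 0.218). All 16 posterior genes had a log2 difference below 0 (median -0.39), as had 31 of the 38 genes. The groups did not overlap for 6 genes, all lower in experiment 1 (15.8%, against 39.2% of all genes): Hoxa7, Hoxa11, Hoxa13, Hoxb13, Hoxc12 and Hoxc13. Experiment and any handling that went with it cannot be told apart.

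Libraries of the same label differed more in Hox genes than in most genes. On the scale of log2(CPM + 0.5), the SD within the 7 fibroblast groups had a median of 0.268 over 37 Hox genes and 0.127 over 14176 genes tested in both experiments. The 90th percentile of all genes was 0.341, and 13 of the 37 Hox genes lay above it: 8 of 16 posterior, 4 of 15 central and 1 of 6 anterior. The most variable were Hoxb13 (SD 0.648), Hoxd13 (0.614), Hoxc12 (0.601), Hoxc13 (0.591), Hoxd12 (0.496) and Hoxc11 (0.472), all of groups 11 to 13. Hoxa5 (0.442) was the most variable gene outside the posterior class. Hoxd13 spanned 3.12 log2 units over the 21 libraries, from 3.31 CPM in a Het library to 32.6 in a KO-NTD library. Mean CPM over the 21 libraries was low for Hoxb13 (0.875), Hoxc12 (1.27) and Hoxc13 (1.54) and higher for Hoxd13 (16.1). Hox genes were not matched to other genes by level, and the part of low counts in this spread was not tested.

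**Figure D5:**
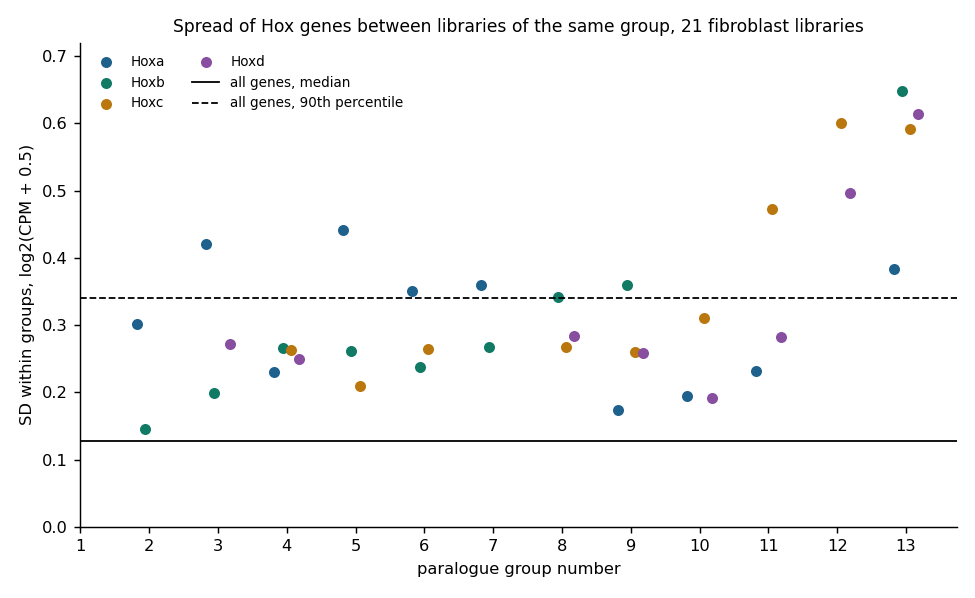
SD within groups of log2(CPM + 0.5) over the 21 fibroblast libraries against paralogue number, 1 point for each of 36 Hox genes coloured by cluster, with lines at the median (0.127) and 90th percentile (0.341) of all genes. Points of groups 12 and 13 lie above the upper line, from 0.383 for Hoxa13 to 0.648 for Hoxb13.

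The share of Hox RPKM held by group 13 shows this by library. It was 10.5, 9.02 and 12.8% in WT of experiment 1, 6.94, 15.7 and 17.3% in KO, and 9.06, 7.21 and 16.4% in KO-NTD. It was 6.91, 16.6 and 11.8% in WT of experiment 2, 3.58, 8.92 and 6.39% in WT-NTD, 6.14, 4.96 and 2.19% in Het, and 4.76, 5.69 and 4.06% in Het-NTD. All 6 Het and Het-NTD libraries were below all 3 WT libraries of their experiment, while WT-NTD overlapped both. Hoxd13 held most of this share in WT of experiment 2, at 10.1 RPKM on average. Hoxa13 was at 0.976, Hoxc13 at 0.397 and Hoxb13 at 0.319 RPKM there. The share thus mostly repeats the Hoxd13 values of the same libraries. Hoxc13 and Hoxb13 had higher means in Het, of 0.961 and 0.730 RPKM.

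The genes that followed Hoxd13 from library to library were described by counting the fibroblast groups, of 7, in which the library highest for Hoxd13 was also highest for the other gene. Hoxa13, Hoxd11 and Hoxd12 reached 6 of 7, as did the limb factors Tbx4, Prrx2 and Lhx9, and Hoxd8 reached 5. Of 14175 genes, 3.34% reached 6 or more and 10.4% reached 5 or more. Hoxb9, the leading trunk gene, was instead lowest in the library highest for Hoxd13 in 6 of 7 groups (3.29% of all genes), and Hoxb3, Hoxb4, Hoxb6, Hoxb8 and Hoxc6 in 5 of 7 (10.8%). The limb list was itself split: Pitx1, Prrx1 and Lmx1b were highest in that library in 5 of 7 groups, while En1 and Emx2 were lowest in 5 of 7. In WT of experiment 2, for example, Hoxd13 was 15.6, 33.3 and 26.7 CPM where Hoxb9 was 44.3, 22.7 and 37.4, so libraries 1 and 2 changed places.

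For Hoxc13, the genes highest in the same library in 6 of 7 groups were Hoxa9, Hoxc10, Hoxc11 and the limb factor Tbx18 (1.09% of all genes). Hoxa10 and Hoxb13 reached 5 of 7 (6.45%), with Shox2, Tbx3 and Emx2. Hoxd3, Prrx1, Tbx15 and Tbx2 were lowest in that library in 5 of 7 groups (6.91%). In the KO-NTD group, Hoxc13 was 1.89, 5.13 and 0.577 CPM and Hoxb13 0.587, 2.67 and 0.154, while Hoxd13 was 19.1, 10.3 and 35.2, so the library highest for Hoxc13 and Hoxb13 was lowest for Hoxd13. These counts describe 3 libraries per group that share a depth and a scaling, and no test was made of them.

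Some members share exons with other genes, and the libraries do not mark strand. Exons of 16 members overlap those of another annotated gene, and for 6 of them that gene is also a row of the table: Hoxa9 with Mir196b, Hoxa11 with Hoxa11os over 35.0% of its exon length, Hoxc5 with Hoxc10, and Hoxd3, Hoxd4 and Hoxd3os1 with each other. Levels of these 6 are uncertain. So are those of the other members among the 16, as reads of an overlapping gene without a row could be counted to them. Hoxb3os, which has no row, overlaps 52.9% of the exon length of Hoxb3 and 27.3% of that of Hoxb2. Hoxaas3 overlaps 20.4% of Hoxa7, and Gm29430 overlaps 16.0% of Hoxa4. None of the 3 genes called between Het and WT was among the 16.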

How the data were processed

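The authors deposited raw read counts per gene symbol for 27 libraries, 3 per group. Per the labels' protocols, input was some 200 ng of RNA and the kit TruSeq RNA v2, whose libraries are unstranded. TopHat2 2.0.14, Bowtie2 2.2.6, featureCounts 1.4.6 and mm10 were used, per the submitters' processing notes. The annotation and the strand setting are not given in the sources used here.

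Counts were filtered with filterByExpr, scaled with TMM and tested with edgeR 4.0.16 (R 4.3.3, quasi-likelihood, robust, legacy dispersions). Fits covered experiment 1 (14551 genes, 37 of them Hox), experiment 2 (14314, 37) and lung (15933, 19), and a joint fit of 27 libraries (16694, 38) served comparisons between experiments and tissues. P-values were adjusted by the Benjamini-Hochberg method over all genes of a fit, with a threshold of 0.05. Hoxb1 (28 counts in all) and Hoxd1 (114) failed the fibroblast filter. RPKM is joint CPM per kilobase of GENCODE M21 union exons. DESeq2 1.42.0, other scaling and filtering, other dispersions and left-out libraries were alternatives. The test script was checked on simulated counts. A member is counted in all totals, and its own values are not reported here. Replicate libraries differed by more than sampling noise. The members and gene lists, and the rule for named genes (every member past the threshold, up to 12 and by p-value beyond, else the 3 lowest p-values, the 3 highest RPKM per group, and up to 4 genes per other list by p-value), were chosen with earlier results of these data known.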

Additional observations from a re-analysis of the deposited data

How the results depend on the processing

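Counts of Hox genes past the threshold depended on the tool and on single libraries. DESeq2 called 6 for Het against WT in fibroblasts, 3 for Het-NTD against WT-NTD, and 1 each for KO-NTD against KO, WT-NTD against WT, and WT of experiment 1 against WT of experiment 2. With only the compared groups in the fit, Het-NTD against WT-NTD gave 1 (Hoxa3, edgeR adjusted p = 0.0132) and WT of experiment 1 against WT of experiment 2 gave 1 (Hoxb13, 0.0267). Bias-adjusted quasi-dispersions, chosen after seeing the data, gave 1 for Het-NTD against WT-NTD (Hoxa5, 0.0423). Leaving out 1 library at a time gave 0 (without WT library 2) to 7 (without WT library 1) for Het against WT in fibroblasts. It gave 0 to 1 for Het-NTD against WT-NTD (1 without WT-NTD library 1 or 3), 0 to 1 for WT-NTD against WT (1 without WT library 1), 0 to 1 for WT of experiment 1 against experiment 2 (1 without WT library 2 of experiment 2) and 0 to 3 for the KO effect minus the Het effect (3 without KO library 1). It gave 32 to 34 for lung against experiment 1, 33 to 35 for lung against experiment 2, and 0 to 0 for the other 6 counts.

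Of the Het against WT calls, Hoxc13 also missed the threshold without WT library 3 (edgeR adjusted p = 0.0765), Het library 1 (0.0834) or Het library 2 (0.0654), and with only the compared groups (0.0642). Hoxc12 missed it without Het library 1 (0.0652) or 2 (0.0685). Of 1273 values of single genes under alternatives, 1210 kept their direction and side of the threshold, 46 lost the threshold, 15 gained it and 2 changed sign. Those were Hoxd4 in Het against WT lung, which ran from -0.15 (without Het library 1) to 1.36 (without WT library 2), and Hoxc9 in the lung minus fibroblast Het effect, from -3.07 (without WT lung library 3) to 0.07 (without WT lung library 1). The cause was not tested.

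Same-numbered libraries correlated at -0.48 to 0.66 in experiment 1, -0.29 to 0.57 in experiment 2 and -0.42 to 0.15 in lung. Libraries of different number and group correlated at -0.74 to 0.65, -0.50 to 0.37 and -0.28 to 0.43, so the numbers were not taken to pair them. WT and WT-NTD libraries of the same number correlated at 0.31, 0.57 and 0.06, and a pairing of these groups alone was not tested. With the replicate block, 4 Hox genes passed for Het against WT, 30 and 33 for lung against experiments 1 and 2, 1 for Het-NTD against WT-NTD (Hoxc13, edgeR adjusted p = 0.0277) and 0 in every other comparison. With 3 libraries a group, an exact test of a single value cannot go below 0.1. Depth limits the lung values, where most posterior genes had 10 counts or fewer over the 3 WT libraries.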
